A study of Mus musculus with 24 samples.

Results

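Transcript levels of the proteasome subunits were described in the hearts of 24 mice. The members are the protein-coding genes whose symbol is Psma, Psmb, Psmc, Psmd or Psme followed by a number. There were 43 of them among the 52350 genes of each library, and 42 had enough counts to be tested. The exception was Psmb11, the catalytic subunit of thymus epithelium, with 1 count in all, in the library ZT0-SED 4.

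The proteasome is the protease that breaks down proteins tagged with ubiquitin. Its 20S core is a barrel of alpha rings, which gate the entrance, and beta rings, of which Psmb5, Psmb6 and Psmb7 carry the active sites. The 19S particle caps the barrel: its Psmc ATPases unfold the substrate and its Psmd subunits bind and remove ubiquitin. Interferon gamma replaces the active subunits with Psmb8, Psmb9 and Psmb10, giving the immunoproteasome, and the Psme proteins are alternative caps. In heart muscle the proteasome is known for the turnover of contractile and damaged proteins, and the subunit genes are known to be raised together by the transcription factor Nfe2l1 when proteasome activity falls.

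Poly-A-selected RNA of whole hearts was sequenced from male wild-type C57Bl/6 mice aged 12 weeks housed with 12 h of light a day. The 4 groups of 6 mice were ZT12-EX (exercised at ZT12), ZT12-SED (sedentary at ZT12), ZT0-EX (exercised at ZT0) and ZT0-SED (sedentary at ZT0), where ZT is zeitgeber time in hours, with ZT12 at the start of darkness. Exercise was 60 min on a level treadmill (0% grade) at 10 m/min, to which the mice had been habituated, and the study asked whether the response of the heart to exercise depends on the time of day. Of each group, replicates 4 to 6 were sequenced on flow cell 2 and the other 3 on flow cell 1, per the labels. The sources used here do not give the time between exercise and collection of the heart, and each label names a separate biological replicate.

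Library totals ran between 9697334 and 23067191 counts, and subunits took between 33211 and 96926 counts of a library, or 0.288% to 0.684%. Levels are given as CPM, a gene's count as a share of the TMM-scaled total of its library. Heart muscle markers were abundant in every library, with a summed level of 30362 to 196292 CPM over 8 genes. Mitochondrial transcripts took 16.3% ± 6.20 of the counts in flow cell 2 libraries, against 36.7% ± 9.02 in flow cell 1 libraries (SD, n = 12 each). The library ZT12-EX 4 stood apart with a mitochondrial share of 2.70% and the highest heart muscle sum, and ZT12-SED 1 and ZT12-SED 2 were the other libraries least correlated with the rest. In 6 libraries (ZT0-EX 4, 5 and 6, and replicate 6 of the other 3 groups) 12 skeletal muscle markers summed to 829 to 3350 CPM, against 59.9 to 202 CPM in the other 18. The part of these differences in the results below was not tested except where a value without the libraries is given.

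Levels of different genes were compared per kilobase of exon (CPM per kb). The length was that of all annotated exons of a gene merged, so these levels and their ratios depend on the annotation. It was 1234 bases for Psma6, 899 for Psmb5 and 3381 for Psmb8. In CPM without the length, Psma6 had a mean of 192, below 232 for Psme4 and 227 for Psmc3. In the alpha ring the mean of 24 libraries was highest for Psma6 at 155 CPM per kb, which was the highest of all members, and the alpha ring median was 57.2 CPM per kb over 8 genes. Psma8, the alpha subunit known from the testis, was lowest of the tested members at 0.42 CPM per kb and had counts in all 24 libraries. The 4 structural beta subunits lay between 39.1 CPM per kb for Psmb3 and 77.6 CPM per kb for Psmb4. The active-site subunits lay close together, with Psmb7 (trypsin-like site) at 60.5, Psmb5 (chymotrypsin-like site) at 64.1 and Psmb6 (caspase-like site) at 72.3 CPM per kb, and their ranges over libraries overlapped.

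The immunoproteasome subunits were lower, with Psmb9 at 2.33, Psmb8 at 5.86 and Psmb10 at 23.6 CPM per kb. As a ratio of levels per kb in the same library, Psmb8 over Psmb5 averaged 0.105 ± 0.042, Psmb9 over Psmb6 averaged 0.037 ± 0.013 and Psmb10 over Psmb7 averaged 0.370 ± 0.215 (SD, n = 24). Of the 10 leukocyte markers, Csf1r and Cd74 were well detected and Cd3e, a T-cell marker, was too low to be tested. In a bulk sample, fewer cells of a type and less RNA per cell cannot be told apart, so these ratios are averages over all cells of the heart.

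The 6 ATPases of the 19S particle lay between 20.4 CPM per kb for Psmc2 and 87.2 CPM per kb for Psmc3. The 11 other subunits of the 19S particle lay between 9.03 CPM per kb for Psmd11, a lid subunit, and 47.8 CPM per kb for Psmd7. Its 3 assembly chaperones, which do not stay in the finished particle, were lower: Psmd9 had 2.30, Psmd5 2.79 and Psmd10 9.53 CPM per kb. Among the alternative caps, Psme1 and Psme2, the interferon-induced pair that joins the immunoproteasome, had 49.3 and 45.5 CPM per kb, against 27.6 for Psme4 and 15.7 for Psme3, the nuclear cap. Psme2 is uncertain, because Psme2b, a protein-coding gene with a near-identical name that falls outside the rule on symbols, had 456 counts in all and could exchange reads with it.

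**Figure D1:**
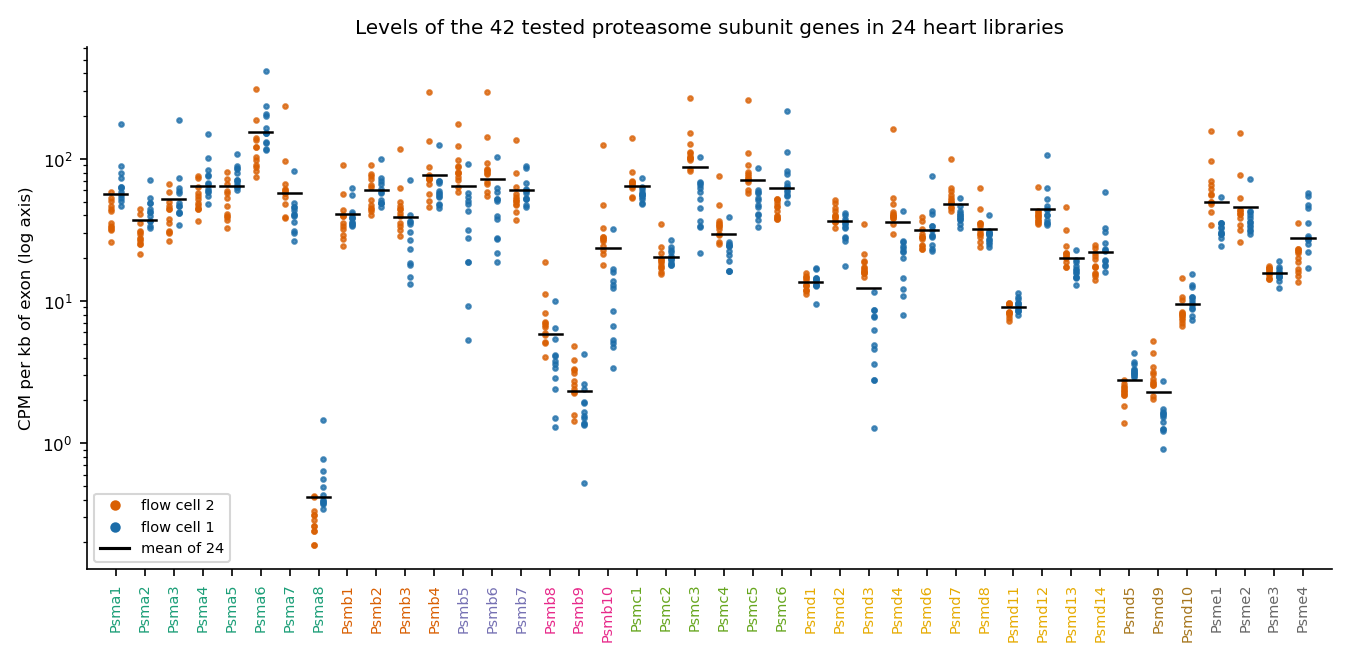
Level of each tested subunit gene (x axis) in CPM per kb of exon (log axis), with 1 point per library, flow cell 2 left of flow cell 1, and a bar at the mean of 24 libraries. Psma6 stands highest at 155 and Psma8 lowest at 0.42 CPM per kb, and the points of Psmd3 on the 2 flow cells do not overlap.

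Summed over all members, the level per kb was 1893 ± 1043 in ZT12-EX, 1711 ± 324 in ZT12-SED, 1507 ± 117 in ZT0-EX and 1801 ± 420 in ZT0-SED hearts (SD, n = 6 each), and the ranges of all 4 groups overlapped. The wide spread of ZT12-EX came from 1 library. ZT12-EX 4 summed to 4002 CPM per kb, and the other 5 libraries of the group lay between 1252 and 1667. Of the 42 tested members, 24 were highest in that library of all 24, and 23 were over 2-fold above the mean of the other 5 ZT12-EX hearts.

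The sum over the constitutive 20S core was 974 ± 545 in ZT12-EX, 922 ± 251 in ZT12-SED, 750 ± 66.9 in ZT0-EX and 965 ± 261 CPM per kb in ZT0-SED hearts. For the 19S particle without its chaperones the sums were 706 ± 358, 618 ± 91.7, 598 ± 88.5 and 641 ± 120 CPM per kb in the same order of groups. The immunoproteasome genes summed to 40.2 ± 53.9, 21.9 ± 15.5, 26.8 ± 7.41 and 38.2 ± 15.8 CPM per kb. These sums were not tested.

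**Figure D2:**
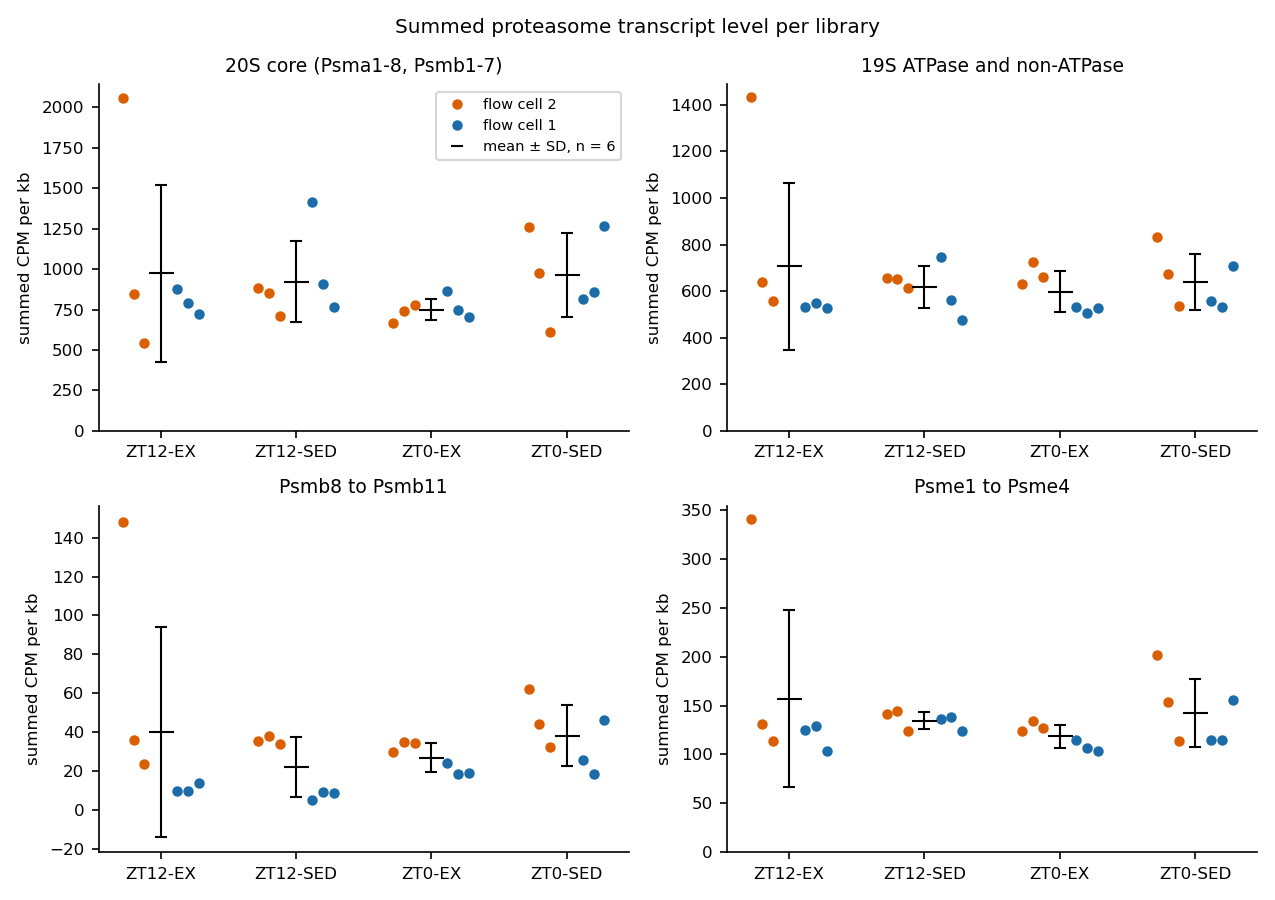
Summed level in CPM per kb (y axis) of the 20S core, the 19S particle, Psmb8 to Psmb11 and Psme1 to Psme4, with 1 point per library, the groups on the x axis, flow cell 2 left of flow cell 1, and mean ± SD of 6 mice. ZT12-EX 4 lies above every other library in each panel, at 2059 CPM per kb for the 20S core and 1433 for the 19S particle.

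At ZT12, exercised and sedentary hearts did not differ at the threshold in any of the 42 members. Changes were tested over all 15294 genes with edgeR's quasi-likelihood test and an adjusted p under 0.05, which 0.294% of all genes passed in this comparison. At an unadjusted p under 0.05 there were 9 members, against 16.4% of all genes, and DESeq2 (1.48% of all genes) and limma-voom also called 0 members. The fold changes were positive for 29 of 42 members with a median of 0.17 on the log2 scale, against a median of 0.06 over all genes. Without ZT12-EX 4 the median was -0.02 and 17 members were positive. The groups overlapped in every member (0.262% of all genes did not overlap).

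The catalytic beta subunits and the immunoproteasome genes had positive fold changes at ZT12, all 6 of them, under TMM, DESeq2 size factors and library totals alike. Without ZT12-EX 4 the medians of these 2 groups of 3 genes were 0.14 and -0.09, with 2 and 1 positive. Psmb6 had a lowest level of 51.9, a median of 88.0 and a highest level of 549 CPM in ZT12-EX hearts, against 35.3, 87.5 and 159 CPM in ZT12-SED hearts. The medians were nearly equal, and the log2 fold change of 0.79 ± 0.36 (SE) came with an adjusted p of 0.2859 and was 0.14 without ZT12-EX 4. Psmd4, a ubiquitin receptor of the 19S particle, had a lowest level of 40.9, a median of 82.1 and a highest of 459 CPM in ZT12-EX, against 22.4, 73.2 and 118 CPM in ZT12-SED hearts. Its log2 fold change was 0.93 ± 0.35 (adjusted p = 0.2386), and it was 0.57 within flow cell 2, 0.90 within flow cell 1 and 0.31 without ZT12-EX 4. The alpha ring ran the other way, with 6 of 8 genes negative and a median of -0.24 (4 of 8 positive and -0.06 when scaled by library totals). Psma8 had the smallest adjusted p of all members (0.2095), with a log2 fold change of -0.77 ± 0.26. Psma8 was singled out after its values were seen. Psmd14, the deubiquitinase of the lid, had -0.41 ± 0.22 (adjusted p = 0.3369).

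At ZT0 exercise likewise left every member short of the threshold, which 1.08% of all genes passed. At an unadjusted p under 0.05 there were 2 members, Psmb9 and Psma2, against 10.4% of all genes, and both DESeq2 (1.75% of all genes) and limma-voom called 0. Here 36 of 42 fold changes were negative with a median of -0.26, while the median over all genes was -0.0080. The groups overlapped in every member (1.6% of all genes did not). The direction was shared by both flow cells for 34 members, 28 of them lower and 6 higher.

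Psmb8 and Psmb9 of the immunoproteasome had the most negative fold changes at ZT0. Psmb9 had a lowest level of 5.07, a median of 7.14 and a highest level of 9.51 CPM in ZT0-EX hearts, against 6.98, 11.8 and 15.5 CPM in ZT0-SED hearts. The groups overlapped, and the log2 fold change was -0.67 ± 0.28 with an adjusted p of 0.4243. Psmb8 had 12.1, 17.3 and 20.1 CPM in ZT0-EX hearts, against 14.1, 25.2 and 38.1 CPM in ZT0-SED hearts, again overlapping. Its log2 fold change was -0.67 ± 0.33 (adjusted p = 0.4859), and it was -0.66 within flow cell 2, -0.59 within flow cell 1 and -0.41 without ZT0-SED 3. Summed leukocyte markers were 163 to 235 CPM in ZT0-EX and 193 to 356 CPM in ZT0-SED hearts, and all 9 tested markers had negative fold changes. Within flow cell 2, 0 of the 9 were positive with a median of -0.56, against 4 positive and a median of -0.036 within flow cell 1. The part of these markers in the values of Psmb8 and Psmb9 was not tested. Psme4 and Psmd11 were among the 6 members with positive values, at 0.20 ± 0.22 (adjusted p = 0.7212) and 0.17 ± 0.12 (adjusted p = 0.5823).

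The exercise effect at ZT12 minus that at ZT0 was tested as an interaction, and no member passed the threshold, nor did any gene (0% of all genes). At an unadjusted p under 0.05 there were 11 members, against 8.02% of all genes, and DESeq2 (0.0327% of all genes) and limma-voom called 0 members. The median difference was 0.40 on the log2 scale with 31 of 42 members positive, and without ZT12-EX 4 it was 0.17 with 29 positive. Psmb8 had the largest value at 1.39 ± 0.47 (adjusted p = 0.571), from a log2 fold change of 0.71 ± 0.34 at ZT12 and -0.67 ± 0.33 at ZT0. Without ZT12-EX 4 the difference was 0.90 and the ZT12 value 0.22, and the adjusted p of the difference lay between 0.3001 and 0.8924 when each library was left out in turn. Psme4 had a negative value of -0.46 ± 0.31 (adjusted p = 0.5879).

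**Figure D3:**
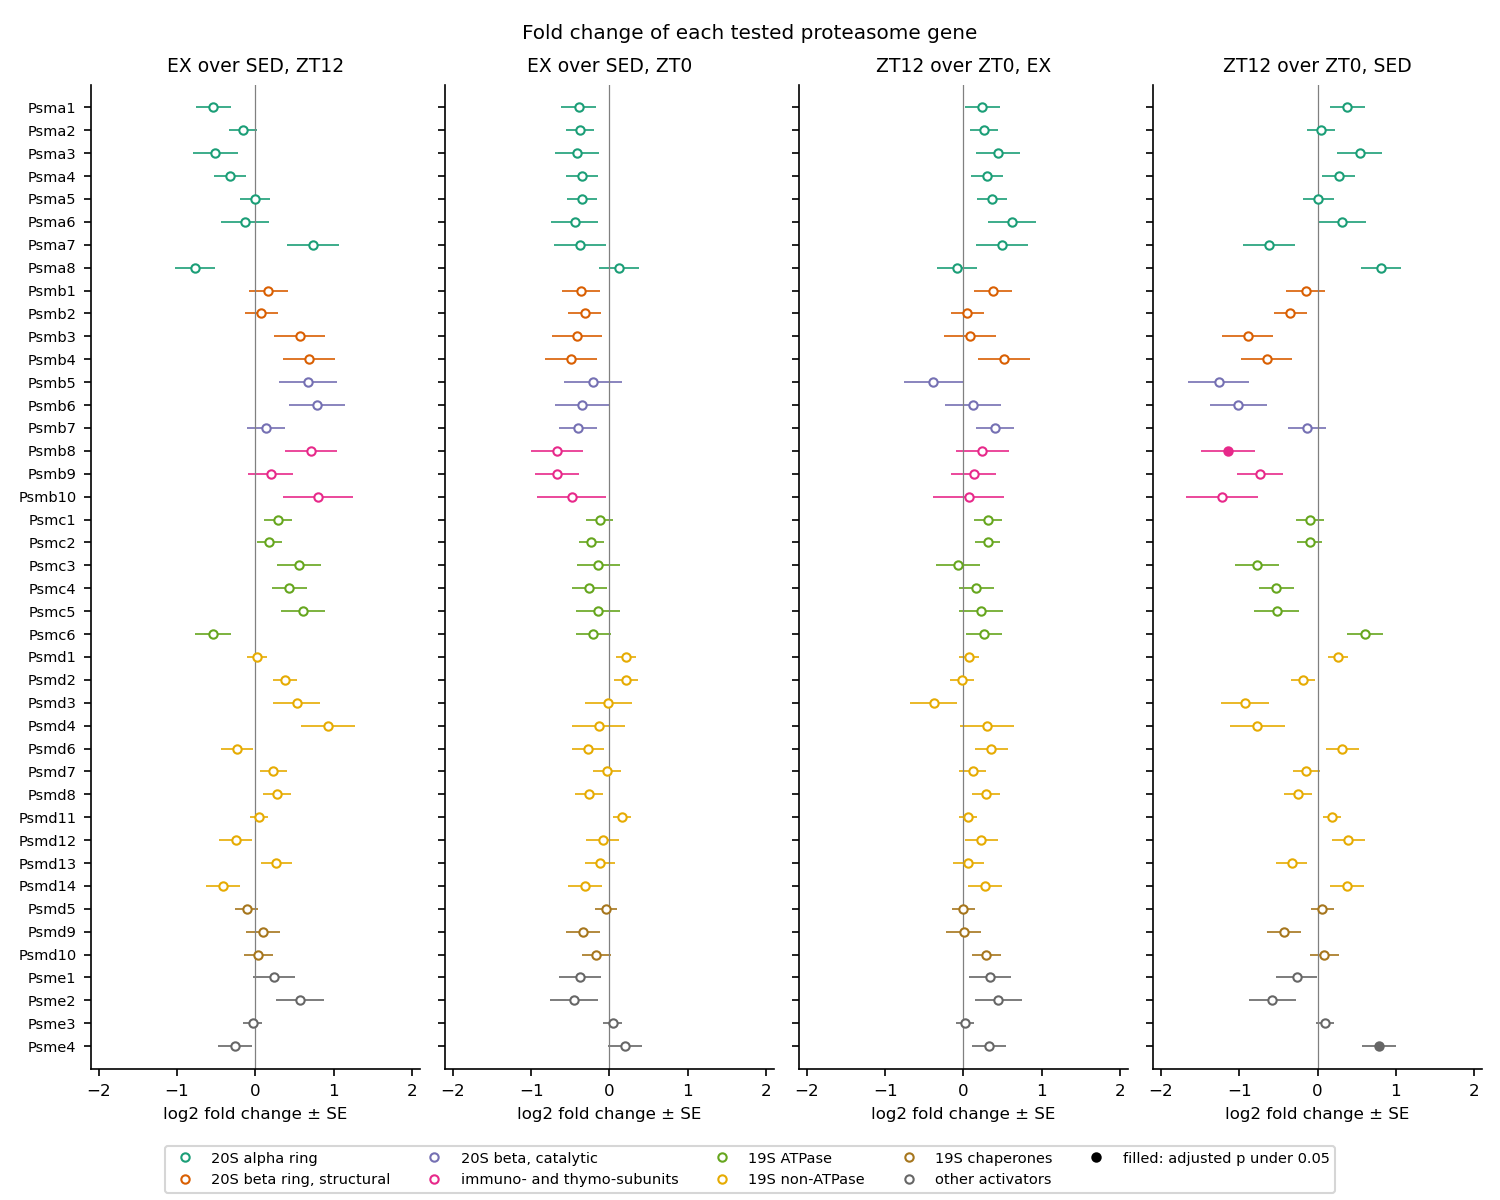
Log2 fold change ± SE of each tested subunit gene (rows, coloured by role) for exercise at ZT12, exercise at ZT0, time of day in exercised mice and time of day in sedentary mice. Filled points passed an adjusted p of 0.05, which only Psmb8 and Psme4 did, both in sedentary mice.

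In sedentary mice the time of day moved 2 members past the threshold: Psme4 rose and Psmb8 fell at ZT12. Among all genes 5.2% passed, 2.46% higher and 2.74% lower, so that 2 of 42 is near the background. At an unadjusted p under 0.05 there were 13 of 42 members, against 33% of all genes, and the groups overlapped in every member (1.7% of all genes did not overlap). Psme4 encodes the large alternative cap, known to act in the nucleus. It had 188, 182 and 187 CPM in ZT12-SED hearts of flow cell 2, against 114, 125 and 195 CPM in ZT0-SED hearts. On flow cell 1 it had 459, 479 and 380 CPM in ZT12-SED hearts, against 232, 212 and 144 CPM in ZT0-SED hearts. The groups overlapped on flow cell 2 and were apart on flow cell 1, and the log2 fold change was 0.79 ± 0.22 (adjusted p = 0.04262). It was 0.40 within flow cell 2 and 1.19 within flow cell 1.

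Psmb8, the immunoproteasome counterpart of Psmb5, had 19.5, 24 and 22.1 CPM in ZT12-SED hearts of flow cell 2, against 38.1, 27.6 and 22.7 CPM in ZT0-SED hearts. On flow cell 1 the levels were 4.41, 5.05 and 8.12 CPM in ZT12-SED hearts, against 22.0, 14.1 and 33.9 CPM in ZT0-SED hearts. The log2 fold change was -1.15 ± 0.34 (adjusted p = 0.04996), and it was -0.40 within flow cell 2 and -1.93 within flow cell 1. Summed leukocyte markers were 68.3 to 250 CPM in ZT12-SED and 193 to 356 CPM in ZT0-SED hearts, with 0 of 9 tested markers past the threshold. The signs were mixed, with 3 markers positive and 6 negative. Cd74 had a mean of 79.3 CPM in ZT12-SED against 158 in ZT0-SED hearts, and Ptprc 16.3 against 10.9 CPM. The part of these markers in the Psmb8 value was not tested. Both calls depended on single libraries: the number of members past the threshold was 16 without ZT12-EX 4 (21.2% of all genes passed there), 10 without ZT0-SED 6 (18.2%) and 4 without ZT12-SED 6 (6.83%). It was 0 without any 1 of 12 libraries (ZT12-EX 3, ZT12-SED 1, 2 and 3, ZT0-EX 2, 3, 5 and 6, and ZT0-SED 1, 2, 3 and 4; 1.98% to 3.9% of all genes), and 1 without ZT12-EX 1, 2 or 5, ZT12-SED 4 or ZT0-EX 1 or 4 (3.77% to 5.11%).

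Psmb5 missed the threshold narrowly, with an adjusted p of 0.05655 and a log2 fold change of -1.26 ± 0.39. Its level was 67.2, 72.8 and 71.4 CPM in ZT12-SED hearts of flow cell 2, against 111, 79.5 and 56.9 CPM in ZT0-SED hearts, which overlap. On flow cell 1 it was 4.80, 8.25 and 16.9 CPM in ZT12-SED hearts, against 48.4, 38.4 and 82.1 CPM in ZT0-SED hearts, with no overlap. The difference was -0.17 within flow cell 2, against -2.59 within flow cell 1. The same unevenness held for Psmb6 (-0.27 within flow cell 2, -1.59 within flow cell 1), Psmb10 (-0.30 and -1.95) and Psmd4 (0.08 and -1.49), with adjusted p of 0.07758, 0.08451 and 0.1326 over both flow cells.

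Fitted on flow cell 2 alone, 0 members passed (0.231% of all genes; 0 members at an unadjusted p under 0.05), and on flow cell 1 alone 26 members passed (43.5% of all genes). Of those 26, 9 were higher at ZT12, with a transcript GC content of 37.0% to 47.9%, and 17 were lower, with a GC content of 49.7% to 57.4%. Mitochondrial transcripts made up 14.7% to 20.7% of counts in ZT12-SED hearts of flow cell 2, against 8.35% to 23.7% in its ZT0-SED hearts. For flow cell 1 the shares were 40.7% to 55.1% for ZT12-SED, against 25.5% to 34.2% for ZT0-SED hearts. The part of this share in the result was not tested.

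The promoters of Psme4 and Psmb8, the 2 genes past the threshold, are shown with that of Psmb5, the constitutive counterpart of Psmb8, because Psme4 and Psmb8 passed in opposite directions. Each run covers 150 bases before to 10 bases after the start of the gene, 5′ to 3′ on the gene's strand, from RefSeq on GRCm38.p6, and capitals mark TGACNNNGC, the antioxidant response element core, on either strand. Psme4 lies at chr11:30771625-30771784 on the plus strand, Psmb5 at chr14:54617986-54618145 on the minus strand and Psmb8 at chr17:34198045-34198204 on the plus strand.
Psme4: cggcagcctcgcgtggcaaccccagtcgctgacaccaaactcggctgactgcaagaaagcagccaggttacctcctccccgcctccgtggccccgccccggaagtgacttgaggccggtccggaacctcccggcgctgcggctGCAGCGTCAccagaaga
Psmb5: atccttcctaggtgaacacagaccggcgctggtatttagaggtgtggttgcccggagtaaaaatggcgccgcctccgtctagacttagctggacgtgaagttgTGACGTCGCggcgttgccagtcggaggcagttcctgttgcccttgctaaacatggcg
Psmb8: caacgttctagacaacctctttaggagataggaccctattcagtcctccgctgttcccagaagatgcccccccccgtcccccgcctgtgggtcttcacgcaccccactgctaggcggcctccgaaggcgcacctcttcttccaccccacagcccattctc
The core occurs in Psme4, on the minus strand, and in Psmb5, on the plus strand, and not in the Psmb8 window.

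Promoters of 36 of the 43 members were found in RefSeq, with 39 start sites, each searched on both strands from 250 bases before to 50 after the start. TGACNNNGC was in 15.4% of them (Psmb5, Psmb6, Psmc6, Psmd9, Psmd12 and Psme4), against 12.4% of 32851 promoters. The GC box GGGCGG was in 59.0% against 35.7%, the CCAAT box in 35.9% against 37.4%, and the E-box CACGTG, the letters bound by clock factors, in 10.3% against 7.15%. The interferon-stimulated response element, searched as GAAA, any 2 bases and GAAA again, was in 10.3% (Psmb3, Psmd4, Psmd9 and Psme1) against 3.44%. A match is only a run of letters and says nothing about binding in these hearts.

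**Figure D4:**
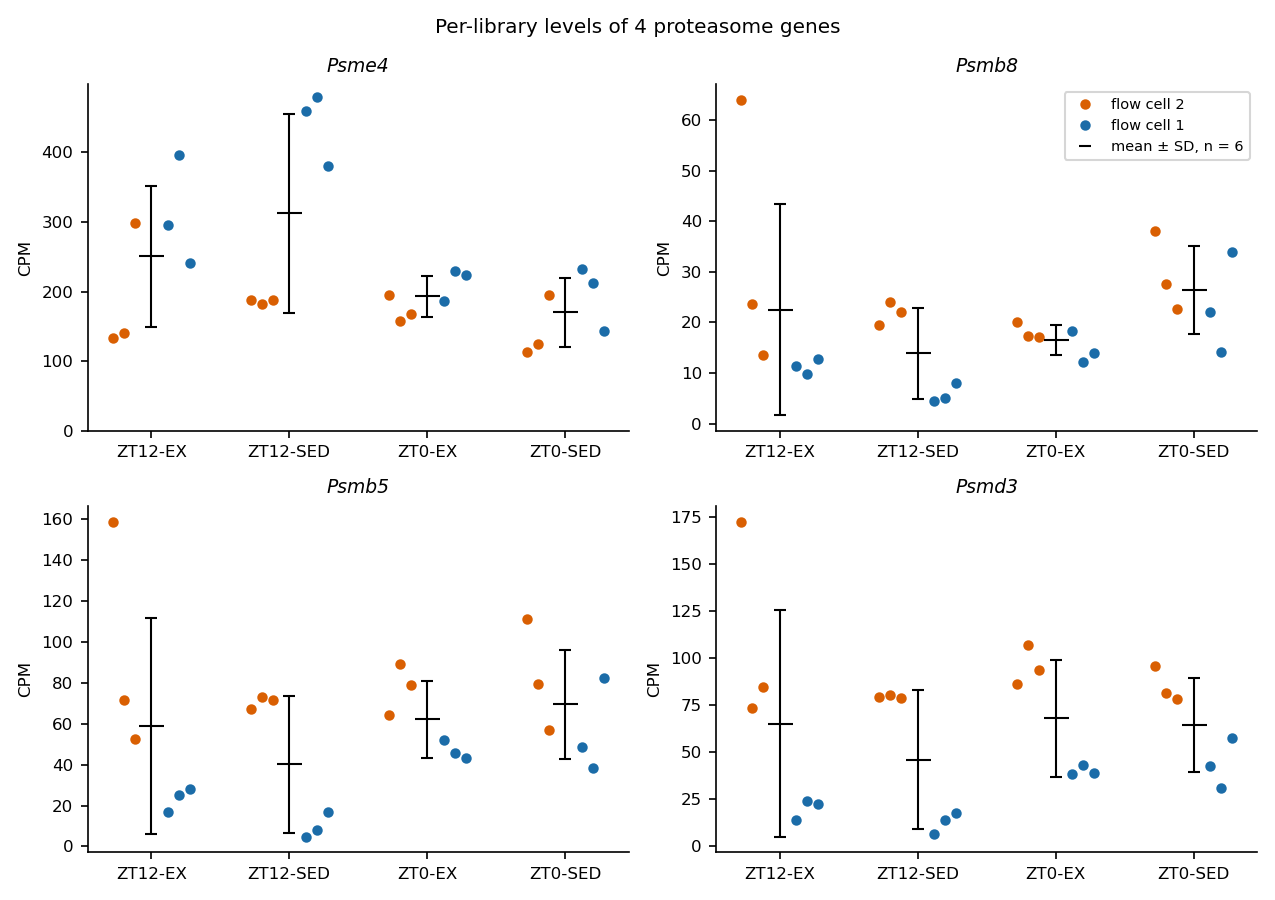
Level in CPM (y axis) of Psme4, Psmb8, Psmb5 and Psmd3 in each library of the 4 groups (x axis), flow cell 2 left of flow cell 1, with mean ± SD of 6 mice. On flow cell 1 the 3 ZT12-SED hearts are the lowest group for Psmb8 (4.41 to 8.12). For Psme4 they lie between 380 and 479 and overlap the ZT12-EX hearts, of which the highest has 396.

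In exercised mice no member differed between ZT12 and ZT0 at the threshold, which 1.65% of all genes passed. No member had an unadjusted p under 0.05 (14.3% of all genes did) or groups that did not overlap (1.1% of all genes). DESeq2 (3.5% of all genes) and limma-voom also called 0. The median log2 fold change was 0.24 with 36 of 42 members positive, and without ZT12-EX 4 it was -0.02 with 21 positive. The smallest adjusted p belonged to Psma6 (0.3551), with a log2 fold change of 0.62 ± 0.30. Psme4 had 133 to 396 CPM with a median of 268 in ZT12-EX hearts, against 158 to 229 CPM with a median of 190 in ZT0-EX hearts, and a log2 fold change of 0.33 ± 0.22 (adjusted p = 0.5122). Psmb8 had a log2 fold change of 0.24 ± 0.33 (adjusted p = 0.7965), and it was 0.59 within flow cell 2, -0.37 within flow cell 1 and -0.18 without ZT12-EX 4. Of the 42 members, 23 had opposite signs on the 2 flow cells.

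More members passed between flow cells than in any comparison of groups, and so did more of all genes. On flow cell 2, 18 of the 42 tested members were higher and 10 lower than on flow cell 1. In this comparison 68.1% of all genes passed, 34.1% higher and 34% lower, so the number of members called is near the background. Scaled by library totals, which shifts the median of all genes by 0.27, 22 members were higher and 4 lower. That shift acts on all genes. The shares of all genes higher and lower in that fit are not given here, so the changed split is not read as a result about the members. All 3 tested immunoproteasome genes were higher, as were Psmb5 and Psmb6, and 6 of the 8 alpha ring genes were lower. With offsets that remove the GC trend of each library, Psmb9 had -0.0020 (adjusted p = 0.9935) and the only member called lower was Psma5. With 2 surrogate variables added to the fit, Psmb8 (-0.80), Psmb9 (-0.63), Psmb10 (-0.56), Psmb5 (-0.91) and Psmb6 (-0.71) were negative, as were Psmd3 (-0.029) and Psmc3 (-0.29). Psmd3, a scaffold subunit of the 19S particle, had 73.4 to 172 CPM with a median of 83.1 on flow cell 2, against 6.33 to 57.3 CPM with a median of 27.8 on flow cell 1. The libraries did not overlap, which 6.45% of all genes shared in that direction, and the log2 fold change was 1.81 ± 0.22 (adjusted p = 5.082e-07).

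Psmb10 had 30.7 to 212 CPM on flow cell 2, against 5.75 to 54.4 CPM on flow cell 1, with a log2 fold change of 1.77 ± 0.34 (adjusted p = 8.48e-05). Psmd9, an assembly chaperone, and Psmc3 and Psmb5 were higher by 1.01 ± 0.16 (adjusted p = 8.053e-06), 1.23 ± 0.20 (adjusted p = 1.564e-05) and 1.495 ± 0.28 (adjusted p = 6.866e-05). Psmd5, another chaperone, ran the other way with 10.1 to 19.97 CPM on flow cell 2, against 21.1 to 31.1 CPM on flow cell 1, again without overlap, as for 2.33% of all genes. Its log2 fold change was -0.54 ± 0.10 (adjusted p = 8.545e-05), and it was -0.12 (adjusted p = 0.2531) with the GC offsets. Psme4 and Psme1, both alternative caps, differed in sign, at -0.67 ± 0.16 (adjusted p = 0.0007064) and 0.96 ± 0.19 (adjusted p = 0.000134). With the GC offsets both were negative and neither passed, at -0.15 for Psme4 (adjusted p = 0.329) and -0.034 for Psme1 (adjusted p = 0.9116).

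Ratios between members therefore depended on the flow cell. Psmb10 over Psmb7 per kb was 0.550 ± 0.120 in flow cell 2 libraries, against 0.190 ± 0.109 in flow cell 1 libraries (SD, n = 12 each). Psmb8 over Psmb5 was 0.083 ± 0.017 and 0.126 ± 0.048, and Psmb9 over Psmb6 was 0.032 ± 0.011 and 0.042 ± 0.014, both lower on flow cell 2. Flow cell is balanced over the 4 groups, with 3 hearts of each group on both, and nothing in the labels says what else differed between them. The 6 libraries with skeletal muscle transcripts were all on flow cell 2.

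Fold changes of the members went with the GC content of their transcripts, which ran between 37.0% and 57.4%. The 18 members higher on flow cell 2 had a median GC content of 52.7%, against 43.5% for the 10 lower ones. Across the 42 members, Spearman's rho between the log2 fold change and GC content was 0.84 for flow cell 2 over 1, -0.82 for ZT12-SED over ZT0-SED and 0.79 for ZT12-EX over ZT12-SED. Over 15288 genes with a GC value the same rho was 0.81, -0.70 and 0.59. For ZT0-EX over ZT0-SED it was -0.16 over members and 0.03 over all genes, and for ZT12-EX over ZT0-EX -0.21 and -0.38. The flow cells differed. For ZT12-SED over ZT0-SED rho over members was -0.29 within flow cell 2 and -0.82 within flow cell 1. Over all genes these were -0.06 and -0.80. For ZT12-EX over ZT0-EX rho over members was 0.41 within flow cell 2 and -0.79 within flow cell 1. These are descriptions across genes of the same libraries, which are not independent, and ZT12-SED libraries enter several of the comparisons.

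In ZT12-SED over ZT0-SED, the 21 members of higher GC content had a median log2 fold change of -0.58 with 1 positive, and the other 21 had a median of 0.26 with 16 positive. With offsets that remove the GC trend from each library, rho over the members was -0.17 and no member passed in any comparison between groups (3.41% of all genes passed in this one). Psme4 then had 0.47 ± 0.17 (adjusted p = 0.1195), Psmb8 -0.90 ± 0.28 (adjusted p = 0.07666) and Psmb5 -0.76 ± 0.23 (adjusted p = 0.07058). The direction of all 3 was kept, and the values of Psme4 and Psmb5 moved by over 1.5 times. Between flow cells, 18 members were higher and 1 lower with the offsets, against 38.6% of all genes called in both directions together. The shares of all genes in each direction are not given here, so the split is not read as a result about the members. The median log2 fold change was 0.22 over members and -0.05 over all genes.

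**Figure D5:**
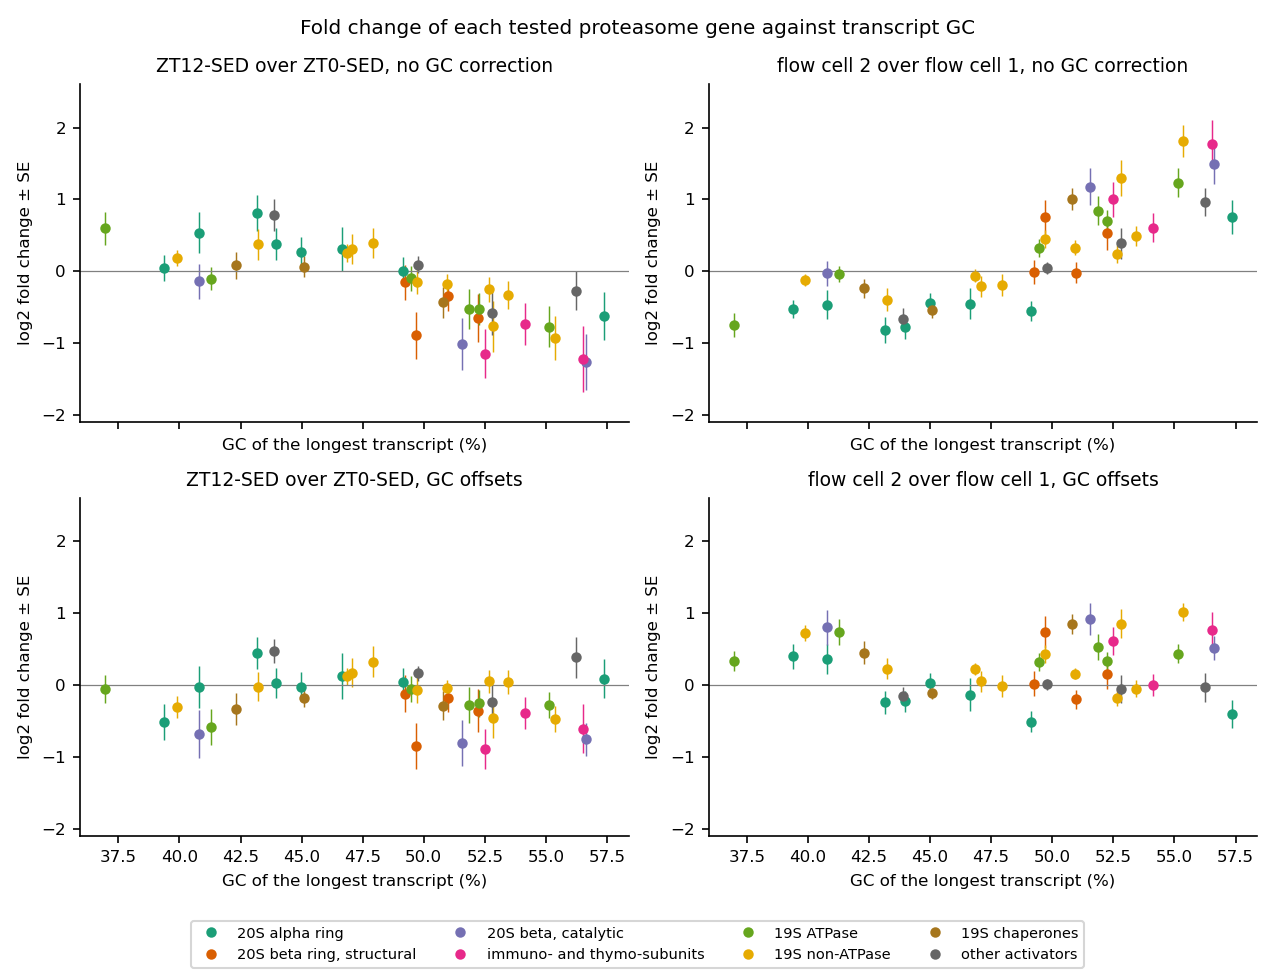
Log2 fold change ± SE (y axis) of each tested subunit gene against the GC content of its longest transcript in % (x axis), for ZT12-SED over ZT0-SED (left) and flow cell 2 over 1 (right), without GC offsets (top) and with them (bottom). The slope seen on the top left, with a rho of -0.82 over 42 genes, is at -0.17 with the offsets.

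Members varied together across the 24 libraries. After group and flow cell means were taken out, the correlation of log2 CPM averaged 0.34 over the 861 pairs of members, against 0.01 for pairs over all genes. It averaged 0.63 among members of higher GC content, 0.45 among those of lower GC content and 0.16 between them. With the GC trend removed the average was 0.54, and 87.6% of the pairs were above 0. Psmb4 and Psme2 were closest to each other, with r = 0.99. The 24 libraries include ZT12-EX 4, which was the highest of all for 24 members, and its part in these correlations was not tested.

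Psme4, Psme3 and Psmd5 stood outside this pattern, with mean correlations of -0.36, -0.30 and -0.24 with the other members, and Psme3 and Psme4 were closest to each other (r = 0.79). With the GC trend removed, Psme4 and Psme3 still had means of -0.26 and -0.27, and their r was 0.60, while the mean of Psmd5 was -0.0018. Psme3 was also among the steadiest members, with group medians of 46.4 in ZT12-EX, 47.1 in ZT12-SED, 46.3 in ZT0-EX and 45.6 CPM in ZT0-SED hearts. All these values share libraries, depth and scaling, and are given as a description. In ZT12-EX 4, Psme4 had 133, Psme3 42.4 and Psmd5 10.1 CPM, each the lowest of the ZT12-EX hearts. The part of that library in the negative correlations was not tested. The median residual SD of the members was 0.43 at ZT12 and 0.28 at ZT0 on the log2 scale, against 0.47 and 0.33 over all genes. It was thus higher at ZT12 in members and other genes alike. These residuals keep any flow cell difference that is particular to a group, and the 3 libraries that stood apart were all at ZT12. The part of either in the SD was not tested.

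Genes that work with the proteasome were counted in the same fits, in lists of known function. Of 11 genes for its assembly and control, 14 proteasome-bound and shuttle proteins, 6 ubiquitin and E1 genes and 12 genes of interferon signalling and class I antigen presentation, none passed in either exercise comparison, in the interaction or between times of day in exercised mice. In sedentary mice 1 of these 43 passed, against 5.2% of all genes. It was H2-D1, a class I molecule that presents the peptides proteasomes make. It had 51.4 to 229 CPM with a median of 138 in ZT12-SED hearts, against 123 to 270 CPM with a median of 218 in ZT0-SED hearts. Its log2 fold change was -0.70 ± 0.20 (adjusted p = 0.04578), and it was -0.27 within flow cell 2 and -1.18 within flow cell 1, the same sign and imbalance as Psmb8. Class I genes are near-identical copies of each other, so its counts are uncertain. The transcript of H2-D1 has a GC content of 55.9%, and the part of that in its value was not tested.

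Between flow cells, 14 of the 43 partner genes were higher on flow cell 2 and 14 lower, near the background of 34.1% higher and 34% lower over all genes. Among them, Tap2 of the peptide transporter had a log2 fold change of 2.00 and Adrm1, a ubiquitin receptor, of 1.75. The E1 enzyme Uba6 had -1.43, Zfand5, a proteasome-binding protein, -1.09 and Akirin2, which carries proteasomes into the nucleus, -0.84.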

How the data were processed

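The deposited files hold raw counts, whole numbers of reads per Ensembl gene without normalization; per the submitters' processing notes the authors used Trimmomatic 0.39, HISAT2 2.2.1 and featureCounts 2.0.1 with the GRCm39 build. The sources used here do not state the use of strand, the treatment of reads shared by genes or the annotation release, and overlapping genes are uncertain. Symbols, biotypes, exon lengths and GC content came from GENCODE M21 (GRCm38) by Ensembl identifier; 257 identifiers without a symbol held 0.00128% of counts.

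The 24 libraries entered a single edgeR 4.0.16 fit (R 4.3.3, TMM, filterByExpr on groups, robust quasi-likelihood F test, group and flow cell as terms, 19 residual degrees of freedom), adjusted by Benjamini-Hochberg over 15294 genes. Each adjusted p and SE in the text comes from this fit unless another is named. Within a flow cell, the difference of group means of log2 CPM (prior count 2) is given. The main fit was tested on simulated counts with known fold changes, and the alternatives and other steps were not. Alternatives used DESeq2 1.42.0, limma 3.58.1 and sva 3.50.0, other scalings and filters, GC offsets, and libraries left out.

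A count of 3 set the detection floor. Within groups, 60 pairs of libraries were checked for repeated deposits, with a chi-square per degree of freedom of at least 13.33. Of 36 correlations between same-numbered libraries of 2 groups 14 were above 0.1, and between ZT12-EX and ZT12-SED 5 of 6 were; no pair of groups had every one above 0.1, and replicate numbers were not used to pair mice. The members, lists and tests were chosen with earlier results of these data known. Named in detail are up to 8 members past the threshold per comparison with the smallest p, 15 preset members (the active-site, immunoproteasome and Psme genes, Psmd4, Psmd11, Psmd14, Psmc4 and Psma3) and up to 4 genes past the threshold of each other list.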

Additional observations from a re-analysis of the deposited data

Results flagged for a closer look

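In 132 groups of 6 libraries tested (33 levels in 4 groups), 23 had a library whose gap to the nearest other exceeded Dixon's critical share of the group's range. For a single group chance gives about 1 in 20. The levels share the same libraries, and the sums and ratios are built from levels of the members, so the 23 flags are not independent of each other. In 20 of the 23 the flagged library was ZT12-EX 4, always as the highest of its group. Among active-site and immunoproteasome genes it had 549 CPM of Psmb6 (the next highest was 146), 468 of Psmb7 (204), 63.9 of Psmb8 (23.7), 17.7 of Psmb9 (9.33) and 212 of Psmb10 (45.0). In the 19S particle it had 695 CPM of Psmc3 (the next was 256), 165 of Psmc4 (72.8), 459 of Psmd4 (111) and 37.8 of the chaperone Psmd9 (18.7), and among the caps 347 of Psme1 (123) and 269 of Psme2 (76.4).

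In sums per kb ZT12-EX 4 had 594 CPM per kb for the structural beta genes (the next was 228), 606 for the active-site beta genes (210), 148 for the immunoproteasome genes (36.0), 824 for the ATPases (341), 610 for the other 19S genes (298) and 340 for the caps (131). It had 2059 CPM per kb for the 20S core (876), 1433 for the 19S particle (638) and 4002 over all members (1667). This library also had the lowest mitochondrial share of all 24, at 2.70%, the highest heart muscle sum, at 196292 CPM, and the lowest fibroblast sum, at 355 CPM, and the part of these in its subunit levels was not tested.

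The other 3 were in ZT12-SED 1, with 734 CPM of Psma3 (the next highest in its group was 284), 1412 CPM per kb for the 20S core (906) and 2319 CPM per kb over all members (1730). The same library was the highest of all 24 for 13 members and the lowest for 14. Psmb5 there was at 0.101 of the mean of the other 5 ZT12-SED hearts and Psma3 at 3.67 times that mean.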

How the results depend on the processing

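Exercise at ZT12 and the interaction called 0 members under every alternative run. Exercise at ZT0 called 1 member with 2 surrogate variables (Psmb8, -0.48, adjusted p = 0.02547) and 2 with GC offsets without the 3 libraries that stood apart (Psmb8, -0.70, and Psmb9, -0.71). Time of day in exercised mice called 1 without those 3 libraries (Psmd3, -0.66, adjusted p = 0.04847). The shares of all genes passing in these fits are not given here, so these few calls cannot be set against a background. Leaving out each library called 0 members in these 4 comparisons.

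For time of day in sedentary mice, 2 members passed, and 38 of 42 alternatives moved that count. It was 1 with DESeq2 size factors and with limma-voom, and 0 with library totals, no filter, no flow cell term, the compared groups alone, flow cell 2 alone, GC offsets, 2 surrogate variables, without the 3 libraries that stood apart and with GC offsets without them. It was 9 with DESeq2 (19.1% of all genes), 26 for flow cell 1, 12 without the 6 libraries holding skeletal muscle transcripts (20.1%) and 4 with GC offsets without them (6.57%). Leaving out each library gave 0 to 16. The replicate block in place of the flow cell term left 1 member (Psme4, adjusted p = 0.0313) and the block with GC offsets 0. The block changed no other call, and mice share only a number. Psme4 kept its direction in all 42 alternatives and passed in 19, with 0.35 to 1.13, and Psmb8 kept its direction and passed in 11, with -1.98 to -0.34. The adjusted p over alternatives ran between 0.0040 and 0.999 for Psme4 and between 0.0012 and 0.999 for Psmb8.

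Between flow cells 28 members passed, 26 to 29 with each library left out (65% to 69.9% of all genes), and 16 with GC offsets without the 3 libraries (38.6%). With 2 surrogate variables 3 were higher and 19 lower (11% and 13.4% of all genes). Reversed under GC offsets were Psme1 (-0.034), Psma3 (0.37), Psmb7 (0.81), Psmb9 (-0.0020), Psmd11 (0.73) and Psmd14 (0.23), and without the 3 libraries Psma3 (0.29), Psmb7 (0.47), Psmb9 (-0.15), Psmd11 (0.57) and Psmd14 (0.21). With the offsets and without the 6 libraries the reversed values were Psma3 (0.67), Psmb7 (1.15), Psmd11 (0.78) and Psmd14 (0.40). With 2 surrogate variables they were Psmd3 (-0.029), Psmc3 (-0.29), Psmb5 (-0.91), Psmb10 (-0.56), Psmd4 (-0.61), Psma3 (0.10), Psmb6 (-0.71), Psmb8 (-0.80), Psmb9 (-0.63), Psmc4 (-0.28), Psmd14 (0.27), Psme2 (-0.78) and Psme4 (0.22). The cause was not tested. The 6 mice per group and, for Psma8 and Psmb9, low counts limit what could be seen.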

Other observations

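Psma3 of the alpha ring had a median of 185 CPM in ZT12-EX, 202 in ZT12-SED, 140 in ZT0-EX and 187 in ZT0-SED hearts, and its adjusted p was 0.3605 for exercise at ZT12 and 0.5755 for exercise at ZT0. The ATPase Psmc4 had medians of 53.5, 49.7, 59.0 and 67.7 CPM in the same order of groups. The deubiquitinase Psmd14 had medians of 56.8, 65.0, 48.8 and 62.7 CPM. Without GC offsets Psmd11, the lid subunit known to set how many 19S particles assemble, was among the steadiest members, with medians of 61.5, 57.2, 58.9 and 52.2 CPM. With the offsets its log2 fold change was 0.44 ± 0.16 for exercise at ZT12 (adjusted p = 0.2341) and 0.73 for flow cell 2 over 1 (adjusted p = 2.472e-05).

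Without GC offsets, Psmb7 was the active-site gene least tied to the flow cell, with a log2 fold change of -0.03 ± 0.17 for flow cell 2 over 1 (adjusted p = 0.8939), against 1.495 for Psmb5 and 1.18 for Psmb6. Its transcript has a GC content of 40.8%, against 56.6% and 51.6% for these genes. With the offsets that order did not hold, with 0.81 for Psmb7 (adjusted p = 0.01179), 0.52 for Psmb5 and 0.92 for Psmb6. Psme1 and Psme2, which form a single cap together, had log2 fold changes of 0.96 and 0.39 ± 0.22 (adjusted p = 0.1115) between flow cells, and the difference between these was not tested.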
